A study of Homo sapiens with 66 samples.

Results

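The transcripts of 10 genes of the inflammasome and of pyroptosis were followed in acute myeloid leukemia (AML) cell lines before and after etoposide. They were the sensors NLRP3, NLRP1, NLRC4, NAIP and AIM2, the adaptor PYCARD, the pore-forming protein GSDMD, the cytokines IL1B and IL18, and the interleukin-1 receptor antagonist IL1RN. The members were chosen by gene symbol, and all 10 were found among the 57992 gene identifiers analysed. RNA was sequenced from 11 human AML cell lines, namely THP-1 (labelled THP1), MONO-MAC-6 (MONOMAC6), NOMO-1 (NOMO1), MOLM-13 (MOLM13), MV-4-11 (MV411), OCI-AML3 (OCIAML3), OCI-AML2 (OCIAML2), KASUMI-1 (KASUMI1), HL-60 (HL60), NB-4 (NB4) and F-36P (F36P). Each line was kept in media alone, here called untreated, or exposed for 24 hours to etoposide, a topoisomerase II poison that leaves DNA double-strand breaks, with 3 biological replicates in each of the 22 groups and 66 libraries in all. The etoposide concentration was the IC50 of the line itself, so dose differed among the lines and cannot be told apart from the line. Cells of 3 wells were pooled for each RNA sample. The study discarded the etoposide-treated OCI-AML2 libraries in its quality control, and that line is therefore reported apart from the other 10.

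An inflammasome is a cytosolic complex in which a sensor, on meeting a danger signal or a microbial product, recruits the adaptor ASC (the product of PYCARD) and the protease caspase-1. Caspase-1 then cuts the precursors of interleukin-1β and interleukin-18 into their active forms and frees the pore-forming part of gasdermin D, which opens the plasma membrane and ends in pyroptosis, an inflammatory cell death. NLRP3 and IL1B transcripts are known to be raised beforehand by NF-κB, a step called priming, and monocytes and macrophages are the cells in which the pathway is best described. Activation itself is a matter of protein assembly and cleavage, which RNA does not show. In bulk RNA, fewer cells of a type and less RNA per cell cannot be told apart.

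The genes are scattered over the genome. On GRCh38, with gene bounds from gencode 44, NLRP3 lies at chr1:247416156-247449108 on the plus strand, NLRC4 at chr2:32224453-32265732 on the minus strand, NLRP1 at chr17:5499415-5619424 on the minus strand and PYCARD at chr16:31201486-31203450 on the minus strand. AIM2 lies at chr1:159061599-159187843 and NAIP at chr5:70968166-71025339, both on the minus strand. IL1B at chr2:112829751-112836816 on the minus strand and IL1RN at chr2:113099315-113134016 on the plus strand share a chromosome arm, and IL18 lies at chr11:112143253-112164096 on the minus strand. Counts were made over exons of the whole gene, so they do not separate isoforms. Exons of PYCARD share 991 bases with PYCARD-AS1 on the opposite strand, which held 3486 reads over all 66 libraries against 75471 for PYCARD, and the deposited count column is not named, so reads in that overlap are uncertain. NAIP has near-identical copies on chromosome 5 whose reads the counting could lose, and its values are uncertain for that reason.

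Of the 10 genes, 6 had an entry in the RefSeq table of start sites (GRCh38.p14). The bases before the start of 3 of them are shown because these genes stand for the patterns described here, IL1B with the largest average change of the 9 genes that have one, NLRC4 with a higher level after etoposide in each of the 10 lines and NLRP3 with changes in both directions. Each run is written 5′ to 3′ on the strand of the gene and stops before any transcript in gencode 44. Capitals mark matches on either strand to 5 motifs, which were the NF-κB consensus, the AP-1 motif TGANTCA, the ETS motif GGAAGT, the C/EBP motif TTNNGCAA and the TATA motif TATAAA.
IL1B, chr2:112836817-112837029, minus strand: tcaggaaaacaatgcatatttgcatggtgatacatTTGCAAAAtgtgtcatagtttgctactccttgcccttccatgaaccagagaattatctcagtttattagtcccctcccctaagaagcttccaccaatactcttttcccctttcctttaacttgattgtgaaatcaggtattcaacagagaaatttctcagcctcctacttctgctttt
NLRC4, chr2:32265744-32265993, minus strand: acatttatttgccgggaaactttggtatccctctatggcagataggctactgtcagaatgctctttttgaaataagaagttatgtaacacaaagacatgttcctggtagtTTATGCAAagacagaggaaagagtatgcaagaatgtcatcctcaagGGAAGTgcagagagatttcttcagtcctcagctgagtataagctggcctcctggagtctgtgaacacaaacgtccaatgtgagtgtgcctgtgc
NLRP3, chr1:247415923-247416155, plus strand: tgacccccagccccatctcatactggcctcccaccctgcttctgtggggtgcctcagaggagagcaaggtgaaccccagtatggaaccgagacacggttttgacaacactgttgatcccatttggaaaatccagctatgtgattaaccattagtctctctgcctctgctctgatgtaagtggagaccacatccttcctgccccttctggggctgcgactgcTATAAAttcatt
In the 250 bases before the start, IL1B held 1 C/EBP match, NLRC4 held 1 C/EBP and 1 ETS match that do not overlap, and NLRP3 held 1 TATA match beginning 29 bases before its start. None of the 3 held the NF-κB consensus or the AP-1 motif in this window. Over all 35116 windows of 250 bases in the table, 9.96% held the NF-κB consensus, 6.57% AP-1, 19.5% ETS, 9.05% C/EBP and 10.7% TATA, and a match here is a description of letters only.

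Reads on genes ranged from 17997404 to 24101670 per library. Levels are CPM, counts scaled to a common library size, and where a group had no read at all, up to 3 reads over its 3 libraries remain possible, for counting error only. The mitochondrial share was 3.49 to 7.44% of reads, with a median of 5.07% in untreated and 5.98% in etoposide libraries. CDKN1A, the cell cycle inhibitor transcribed by p53 after DNA damage, was induced in all 10 lines, and MDM2, the p53 ubiquitin ligase, in 3. Of the genes listed as general myeloid markers, CD33, PTPRC and SPI1 were above 1 CPM in all 11 untreated lines and CEBPA in 10. F-36P alone had high levels of the erythroid genes, with a summed mean of 6546 CPM before etoposide against 0.05 to 14.9 CPM in the other lines.

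Before etoposide, the 10 genes ranged from undetected to 263 CPM, and every one of them differed between the 11 untreated lines by the edgeR quasi-likelihood F test (10 of 10 at an adjusted p under 0.05). This is the rule for nearly all genes in these lines, as 99.4% of 18130 genes tested did so. Levels are given as CPM on one TMM scale over all libraries, as the mean ± SD of 3 libraries unless single libraries are listed.

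NLRP3, the sensor of potassium efflux and of many kinds of cell damage, differed widely between the lines. Its level was 281, 276 and 233 CPM in the 3 untreated OCI-AML2 libraries and 199, 208 and 181 CPM in those of OCI-AML3. It fell from there through MOLM-13, MONO-MAC-6, THP-1, MV-4-11 and NOMO-1, whose means spanned 122 to 60.7 CPM, to 30.6 ± 1.80 CPM in NB-4, 12.9 ± 0.197 CPM in HL-60 and 8.56 ± 0.920 CPM in KASUMI-1. In F-36P no read fell on NLRP3 in any of the 3 libraries, which allows up to 0.0545 CPM. Of the 10 pairs of neighbours in this order, 1 overlapped in its libraries (MOLM-13 with MONO-MAC-6).

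The other sensors were lower and followed other orders. NLRP1, which responds to microbial proteases and to ribosome stress, was highest in OCI-AML3 at 56.5, 60.1 and 62.0 CPM and in NOMO-1 at 36.7, 35.6 and 34.3 CPM. Its level was lowest in THP-1 at 0.758 ± 0.122 CPM and was not distinct from HL-60 at 1.06 ± 0.25 CPM, since their libraries overlapped. NLRC4, the partner that oligomerizes on bacterial ligands bound by NAIP, kept to a narrow range, with 7.13 ± 1.38 CPM in MONO-MAC-6 at the top and 0.700 ± 0.0343 CPM at the bottom in OCI-AML3, and 7 of its 10 neighbouring pairs overlapped. NAIP, which binds bacterial flagellin and secretion proteins, reached no more than 0.682 ± 0.0541 CPM (OCI-AML2) and had no read in F-36P and NB-4. AIM2, the sensor of cytosolic DNA, stood at 3.93 ± 0.152 CPM in MONO-MAC-6, where all 3 libraries were above those of every other line, and at 0.616 ± 0.506 CPM or less elsewhere.

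PYCARD and GSDMD were present in all 11 lines. PYCARD ran from 103 ± 10.3 CPM in THP-1 to 7.78 ± 1.66 CPM in F-36P, and GSDMD from 53.6 ± 3.89 CPM in OCI-AML2 to 6.20 ± 1.09 CPM in NB-4. Per kilobase of the canonical transcript, which is the scale on which different genes can be compared, PYCARD was the highest of the 10 genes in 9 of the 11 untreated lines, with a median over lines of 78.1 CPM per kb. On that scale the medians of NLRP3, GSDMD and IL18 were 19.0, 15 and 10.4 CPM per kb.

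The cytokine genes also differed widely between lines. IL1B was found at 56.8, 55.0 and 50.9 CPM in MONO-MAC-6, then 33.4, 31.5 and 33.7 CPM in OCI-AML3 and 26.6, 21.6 and 29.7 CPM in F-36P. It was under 3 CPM in every untreated library of the 7 lines other than these and OCI-AML2 (10.5 ± 2.09 CPM), down to 5 reads over the 3 libraries of HL-60. IL18 ran from 24.2 ± 1.53 CPM in F-36P down to MONO-MAC-6 at 0.359 ± 0.151 CPM and NB-4 at 0.301 ± 0.0334 CPM, the last pair not distinct. IL1RN was at 56.0 ± 0.903 CPM in MONO-MAC-6 and at 0.277 ± 0.142 CPM or less in HL-60, F-36P and KASUMI-1, whose libraries overlapped.

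**Figure D1:**
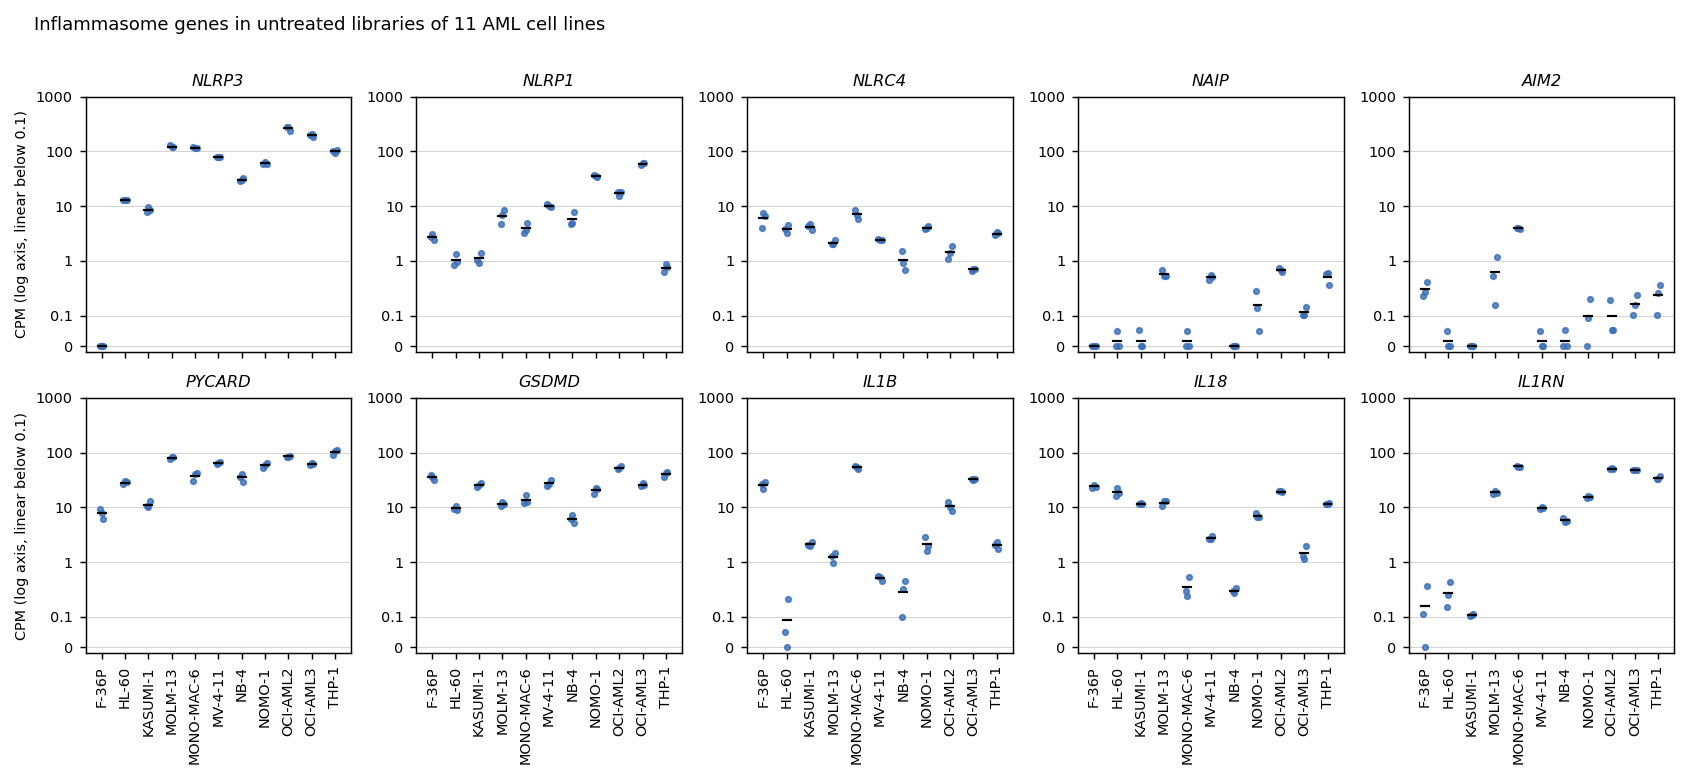
CPM of each of the 10 genes in the 33 untreated libraries, by cell line. Points are single libraries and bars the mean of 3, on a logarithmic axis that is linear below 0.1 CPM. The highest line mean was 611 times the lowest for IL1B and 515 times for IL1RN, against 10.2 times for NLRC4 and 8.64 times for GSDMD.

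Likeness of basal patterns was described by Pearson's r of log2(1 + CPM) over the 11 lines, which share their scaling and include F-36P with its erythroid genes. Among the 10 genes, NLRP3 was most like PYCARD (r = 0.91) and IL1RN (r = 0.90), and PYCARD and IL1RN had r = 0.83. Among genes whose mean reached 1 CPM, the nearest to NLRP3 were SERPINB8 (r = 0.97), ADAP1 and BATF, to IL1RN PHACTR3 (r = 0.97), HAL and SAMHD1, and to PYCARD CEP250-AS1 (r = 0.95), SPAG1 and IL6R. NLRP1 was nearest to PFN1P1 (r = 0.91), BCDIN3D and RPA1, NLRC4 to MCEE (r = 0.90), FN3KRP and ITSN2, and GSDMD to CCDC9B (r = 0.93), PROCR and ME3. IL1B was nearest to ZNF542P (r = 0.93), SRGAP1 and APOL3, IL18 to FOXP1 (r = 0.88), ZNF850 and KBTBD7, and AIM2 to IFNLR1 (r = 0.98), BDNF and PI15. The AIM2 likeness rests mostly on MONO-MAC-6, at 3.93 CPM against 0.616 CPM or less in the other lines. For NAIP, near the detection limit, ENSG00000226032, PRPF18 and ZNF556 came first (r = 0.95 for the first). The nearest genes of each member were those of highest r among 13733 or 13734 genes over 11 lines, which favours a high r.

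After etoposide, NLRP1 and NLRC4 were called induced in 8 of 10 lines each, and IL1B in 7 of the 9 lines in which it could be tested. IL18 was called induced in 7 of 10, AIM2 in 4 of 5, NAIP in 2 of 3 and IL1RN in 5 of 10. PYCARD and GSDMD were not called in any line, and NLRP3 was called higher in 1 line and lower in another. A gene was called induced or repressed in a line at an edgeR quasi-likelihood FDR below 0.05 and a fold change above 2. The log2 fold changes come from the fit of each line on its own scale and can differ from ratios of the CPM means. For AIM2 in NB-4, with 1 untreated read, the fit gave 39.5-fold and the ratio of levels was 53.7. Of the 100 pairs of a gene and a line, 86 passed the filter on low counts. Of these, 14 pairs were not over the count minimum in all 3 untreated libraries, and 13 of the 14 passed through their etoposide libraries only, which favours a higher value after etoposide. The remaining pair, AIM2 in MOLM-13, was under the minimum in some libraries of both groups. Among the 72 pairs that were over the count minimum in untreated libraries as well, 30 were induced (41.7%) and 1 was repressed, against 6.66% induced and 4.33% repressed among all genes meeting the same condition. Over all 86 tested pairs, 42 were induced, against a background of 11.1%, and 1 was repressed, against 3.96%. The 3 etoposide libraries all lay above the 3 untreated ones in 65 of the 86 pairs and all below in 6, against 32.1% and 27.1% of all tested pairs.

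NLRP1 was induced in 8 of 10 lines. In KASUMI-1 it went from 1.04, 0.914 and 1.38 CPM to 15, 16.6 and 15.8 CPM, a log2 fold change of 3.80 ± 0.161 (SE, adjusted p = 2.68e-07). In F-36P it went from 2.73, 3.08 and 2.43 CPM to 27.8, 30.7 and 28.7 CPM (3.40 ± 0.151, adjusted p = 5.77e-07). In THP-1, the line with the lowest basal level, 0.627, 0.867 and 0.779 CPM became 4.92, 5.71 and 3.71 CPM (2.60 ± 0.263, adjusted p = 8.09e-07). The groups lay far apart in each of these lines. In the 5 further lines that were called, HL-60, NB-4, MONO-MAC-6, MOLM-13 and MV-4-11, the log2 fold change was 1.76 to 2.14. NOMO-1 and OCI-AML3, the lines with the highest basal NLRP1, had the smallest changes on the log2 scale though not in CPM, 35.5 ± 1.21 against 55.8 ± 6.76 CPM (0.67) and 59.5 ± 2.82 against 101 ± 3.24 CPM (0.77), both under the fold threshold with adjusted p of 0.000152 and 8.59e-05. In all 10 lines the 3 etoposide libraries lay above the 3 untreated ones.

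NLRC4 was also induced in 8 of 10 lines, with smaller and more even changes. The largest was in OCI-AML3, from 0.660, 0.717 and 0.722 CPM to 3.74, 3.49 and 3.16 CPM (log2 fold change 2.31 ± 0.183, adjusted p = 4.15e-05). In THP-1 it went from 2.98, 3.32 and 3.17 CPM to 11.9, 9.06 and 12.8 CPM (1.78 ± 0.181, adjusted p = 8.48e-07), and in MV-4-11 from 2.49, 2.40 and 2.42 CPM to 8.76, 8.37 and 8.01 CPM (1.74 ± 0.141, adjusted p = 6.45e-10). No library of one group reached the other in these 3 lines. KASUMI-1, NB-4, MOLM-13, F-36P and NOMO-1 followed with 1.75, 1.72, 1.30, 1.22 and 1.09. HL-60 (0.75) and MONO-MAC-6 (0.73) were under the fold threshold, with adjusted p of 0.00903 and 0.000283. In all 10 lines the groups did not overlap. The call in F-36P rested on 1 library, since without untreated replicate 1 the log2 fold change was 0.93, and the call in NOMO-1 likewise, at 0.96 without etoposide replicate 3.

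NAIP could be tested in 3 of the 10 lines. It was induced in MOLM-13, from 0.687, 0.532 and 0.527 CPM to 2.05, 1.34 and 2.13 CPM (log2 fold change 1.62 ± 0.290, adjusted p = 0.000915), and in MV-4-11, from 29 reads over 3 libraries to 105 (1.45 ± 0.313, adjusted p = 0.000381). THP-1 had 30 reads before and 38 after (0.17, adjusted p = 0.766). These are low counts, and all 3 pairs passed the filter through their etoposide libraries only.

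AIM2 rose from close to nothing in several lines. In MONO-MAC-6, the one line with a clear basal level, it went from 3.98, 4.06 and 3.76 CPM to 12.4, 11.3 and 10.9 CPM (log2 fold change 1.56 ± 0.105, adjusted p = 1.59e-07). It was induced as well in NB-4, NOMO-1 and OCI-AML3, where 1, 6 and 10 reads over the untreated libraries became 63, 83 and 74. In NB-4 the ratio of levels was 53.7, with an exact 95% interval of 9.30 to 2155 that covers counting error only. HL-60 and MV-4-11 were not tested, but 1 read in each became 24 and 22, ratios of 23.3 (3.80 to 957) and 17.2 (2.77 to 708). MOLM-13, where the 3 untreated libraries ran from 0.159 to 1.16 CPM, showed no call (0.13, adjusted p = 0.856), and F-36P had 17 reads before and 16 after. The 3 calls outside MONO-MAC-6 were among those that passed the filter through etoposide libraries only.

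**Figure D2:**
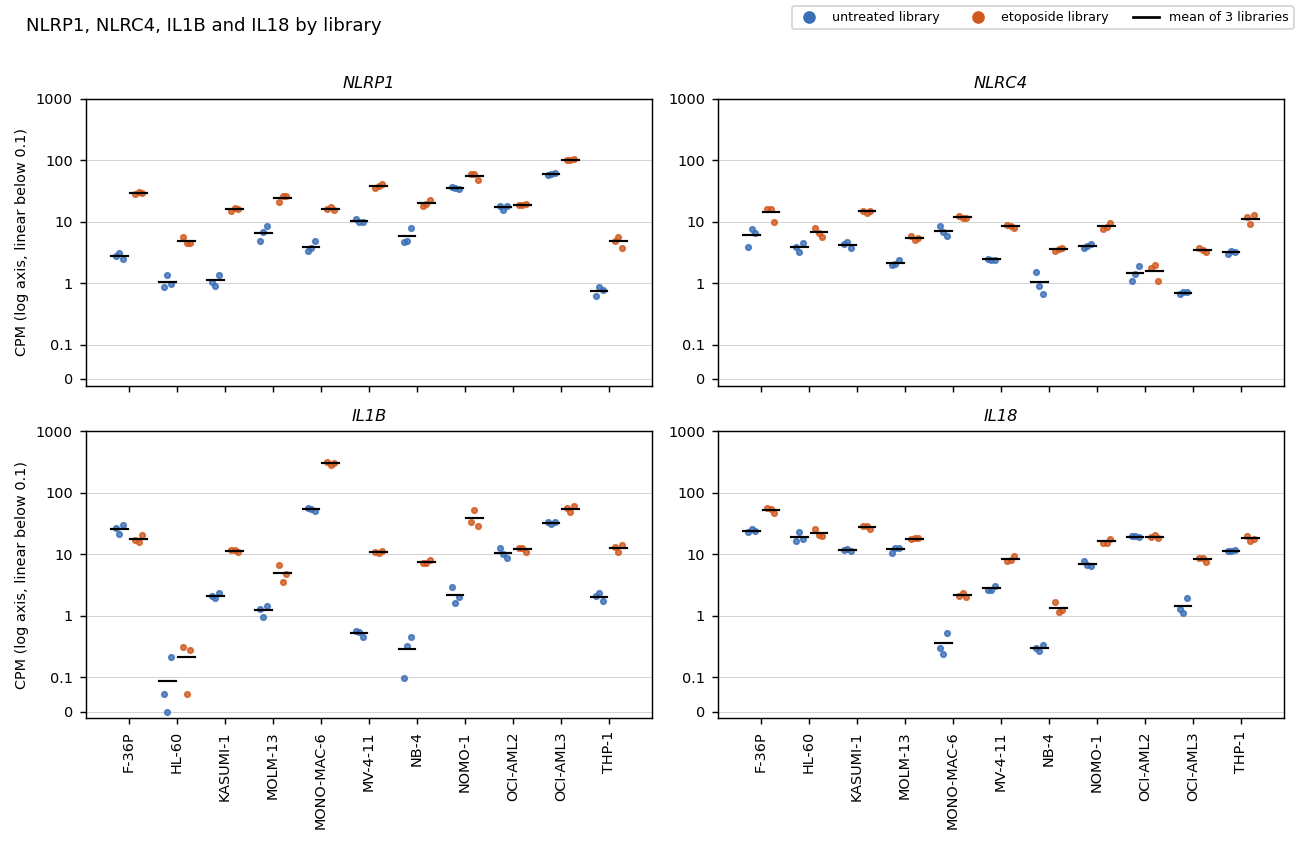
CPM of NLRP1, NLRC4, IL1B and IL18 in the single libraries of 11 cell lines, untreated (blue) and after etoposide (orange), with the mean of 3 as a bar, on a logarithmic axis that is linear below 0.1 CPM. For NLRP1 the orange points lie above the blue ones in all 11 lines, and for NLRC4 in all but OCI-AML2.

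NLRP3 did not share this direction. It was induced in KASUMI-1, from 7.76, 9.57 and 8.37 CPM to 21.1, 20.7 and 19.3 CPM (log2 fold change 1.22 ± 0.114, adjusted p = 1.60e-05), and repressed in NB-4, from 29.0, 30.1 and 32.5 CPM to 14.2, 13.6 and 13.7 CPM (-1.17 ± 0.105, adjusted p = 2.40e-07). The repression is the only such call among the 10 genes, and with library size alone as scaling it was under the fold threshold (-0.97). MONO-MAC-6, with 116 ± 3.14 before and 72.0 ± 5.26 CPM after (-0.68, adjusted p = 1.24e-06), and NOMO-1, with 60.7 ± 3.90 and 37.4 ± 3.73 CPM (-0.68, adjusted p = 7.88e-05), passed the FDR but not the fold threshold. In both lines all 3 etoposide libraries lay below the untreated ones, as they also did in MV-4-11 (-0.20). MOLM-13 had 0.21, and the libraries of HL-60, OCI-AML3 and THP-1 overlapped between the groups. In F-36P, with 0 reads before, 32 reads were found after etoposide at 0.453, 0.482 and 0.560 CPM, at least 9.15-fold higher than the floor of 3 reads over the group, a pair too low to be tested.

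PYCARD and GSDMD changed little. For PYCARD the largest difference was in F-36P, where 9.43, 7.82 and 6.10 CPM stood against 12.8, 16.1 and 13.9 CPM (log2 fold change 0.88 ± 0.168, adjusted p = 0.00117), and the other lines ran from -0.24 in THP-1 to 0.66 in KASUMI-1. For GSDMD it was again F-36P, with 38.5, 35.5 and 31.7 CPM against 57.7, 59.9 and 71.8 CPM (0.85 ± 0.127, adjusted p = 0.000266), and the other lines ran from -0.12 in THP-1 to 0.60 in MOLM-13. None of these 20 pairs was called. In F-36P both genes crossed the fold threshold with library size alone as scaling (1.12 and 1.09), where the median of all genes in that line stood at 0.34 instead of 0.09, and with a filter at 5 CPM (1.04 and 1.00). At the FDR alone, without the fold threshold, PYCARD passed in 5 lines and GSDMD in 6, all of them higher after etoposide. The share of all genes passing the FDR alone was not worked out, so these counts have no background beside them. Of the 3 etoposide libraries of a line, replicate 1 was the lowest for PYCARD in 9 of 10 lines and for GSDMD in 8 of 10, a count looked up after the values were seen, and of the untreated libraries replicate 1 was the lowest in 7 of 10 for either gene.

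**Figure D3:**
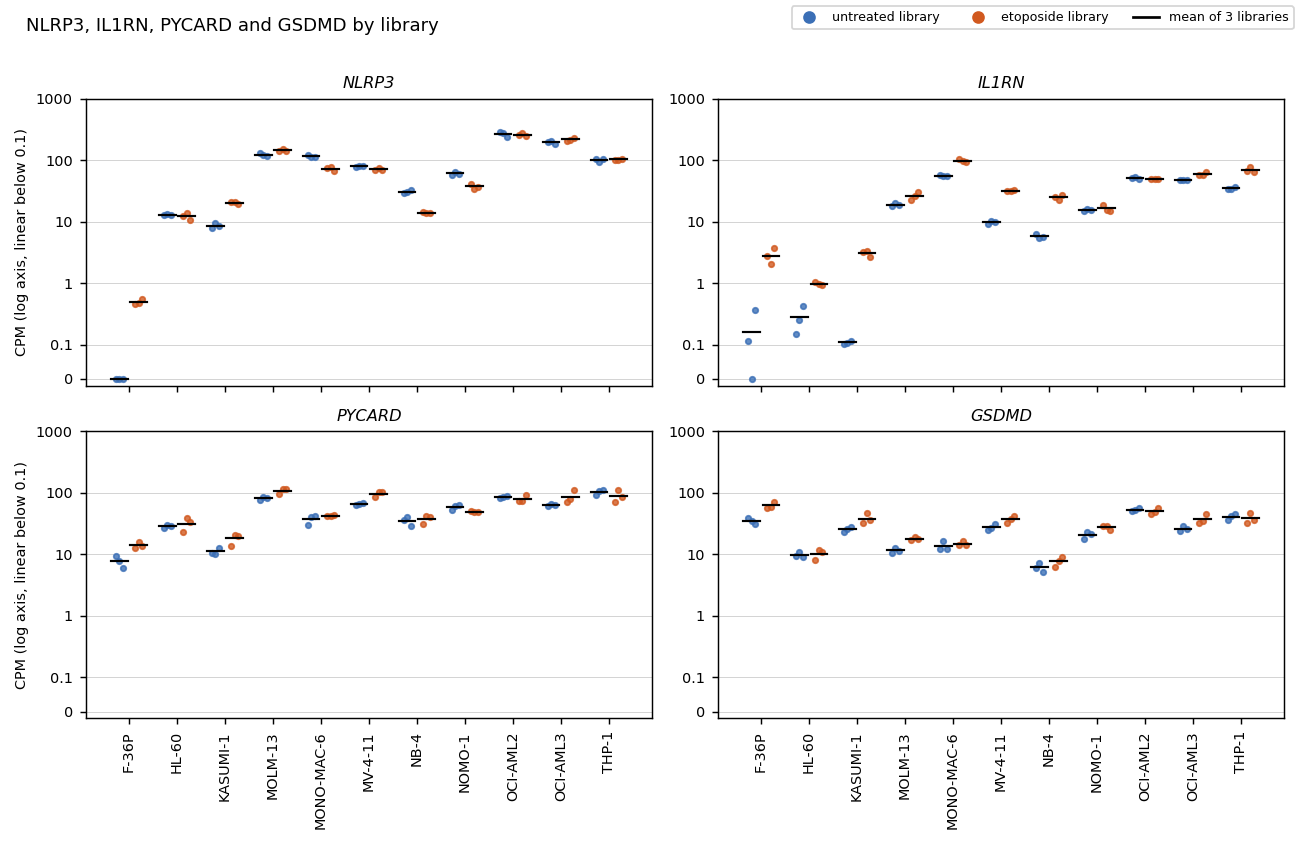
CPM of NLRP3, IL1RN, PYCARD and GSDMD in the single libraries of 11 cell lines, untreated (blue) and after etoposide (orange), with the mean of 3 as a bar, on a logarithmic axis that is linear below 0.1 CPM. NLRP3 goes up in KASUMI-1 and down in NB-4, and IL1RN goes up most in F-36P and KASUMI-1, where it started lowest.

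IL1B, the gene of the main inflammasome cytokine, had the largest average change of the 9 genes for which one could be had. It was induced in 7 of the 9 lines tested. In NB-4 it went from 0.0995, 0.322 and 0.446 CPM to 7.19, 7.27 and 8.08 CPM (log2 fold change 4.67 ± 0.283, adjusted p = 5.25e-09), in MV-4-11 from 0.559, 0.545 and 0.453 CPM to 10.9, 10.7 and 11.3 CPM (4.35 ± 0.185, adjusted p = 3.12e-14), and in NOMO-1 from 2.94, 1.62 and 2.0 CPM to 33.8, 52.4 and 29.4 CPM (4.16 ± 0.256, adjusted p = 2.53e-07). The groups were separated by far more than their spread in all 3, but the pairs of NB-4 and MV-4-11 passed the filter through their etoposide libraries only. The highest level of any line was reached in MONO-MAC-6, where 56.8, 55.0 and 50.9 CPM became 313, 287 and 306 CPM (2.48 ± 0.0557, adjusted p = 4.60e-11). There IL1B was the highest of the 10 genes per kilobase after etoposide, at 200.2 CPM per kb. THP-1, KASUMI-1 and MOLM-13 rose by 2.58, 2.39 and 1.96 on the log2 scale. OCI-AML3, with the second highest basal level, had 32.9 ± 1.19 against 55.7 ± 5.51 CPM (0.77, adjusted p = 0.000296), under the fold threshold. F-36P went the other way, with 26.6, 21.6 and 29.7 CPM before and 17, 15.6 and 21.0 CPM after (-0.54 ± 0.165, adjusted p = 0.0169), also under the fold threshold, and HL-60 had 5 reads before and 13 after and was not tested.

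IL18, whose product like that of IL1B is matured by caspase-1, was induced in 7 of 10 lines. The largest changes were in lines with low basal levels, MONO-MAC-6 from 0.302, 0.244 and 0.531 CPM to 2.15, 2.32 and 2.01 CPM (log2 fold change 2.57 ± 0.273, adjusted p = 6.70e-06), OCI-AML3 from 1.32, 1.13 and 1.97 CPM to 8.86, 8.61 and 7.67 CPM (2.5 ± 0.197, adjusted p = 3.94e-05), and NB-4 from 17 reads to 90 (2.12 ± 0.342, adjusted p = 7.72e-05). The pairs of MONO-MAC-6 and NB-4 passed the filter through their etoposide libraries only. MV-4-11, NOMO-1, KASUMI-1 and F-36P had 1.55, 1.22, 1.21 and 1.14. The highest level after etoposide was in F-36P, at 57.4, 55.8 and 46.8 CPM after 22.8, 25.8 and 23.8 CPM. THP-1 (0.61, adjusted p = 0.00332) and MOLM-13 (0.55, adjusted p = 0.00139) were under the fold threshold, and in HL-60 the libraries of the groups overlapped (0.17, adjusted p = 0.386). In F-36P, then, IL18 was called and IL1B was not.

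IL1RN, which encodes the antagonist that occupies the interleukin-1 receptor without signalling, was induced in 5 of 10 lines. In KASUMI-1, 6 reads over 3 libraries became 190 (log2 fold change 4.70 ± 0.300, adjusted p = 1.69e-06), and in F-36P, 9 became 181 (4.06 ± 0.534, adjusted p = 0.000115). With HL-60 (1.78, 16 reads before and 59 after), these are the lines that began under 0.5 CPM and passed the filter through etoposide libraries only. NB-4, from 5.83 ± 0.478 to 25 ± 2.45 CPM (2.07), and MV-4-11, from 9.80 ± 0.550 to 31.9 ± 1.09 CPM (1.66), were induced from a measured level. THP-1 lay on the threshold, from 33.7, 33.6 and 36.8 CPM to 67.2, 77.4 and 64.5 CPM (0.96 ± 0.129, adjusted p = 2.14e-05). It was called without untreated replicate 3 (1.02), without etoposide replicate 3 (1.04) and with library size alone as scaling (1.02). MONO-MAC-6 (0.82), MOLM-13 (0.44) and OCI-AML3 (0.31) passed the FDR alone, and NOMO-1 did not (0.12, adjusted p = 0.347).

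The balance of agonist and antagonist transcripts moved in both directions, which is given as a ratio of CPM means with no test. IL1B over IL1RN was higher after etoposide in NOMO-1, NB-4, MONO-MAC-6, THP-1, MOLM-13, OCI-AML3 and MV-4-11, with no overlap of the library ratios in any of these 7 lines. In NOMO-1 it went from 0.143 to 2.33, and in MONO-MAC-6 from 0.969 to 3.07. It was lower in F-36P and in KASUMI-1 (19.5 to 3.73), lines in which IL1RN started from a few reads. Among the 7 lines with a higher ratio, IL1B started from 16 reads over the untreated libraries in NB-4 and 30 in MV-4-11. In HL-60 both transcripts were too low for the ratio to be read.

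By line, the members induced of those tested were 6 of 8 in KASUMI-1 (background of all genes 14.6%), 6 of 9 in MV-4-11 (12.5%), 6 of 9 in NB-4 (13.2%), 4 of 7 in F-36P (24.3%), 4 of 9 in MONO-MAC-6 (8.53%), 4 of 9 in NOMO-1 (8.34%), 4 of 10 in MOLM-13 (8.59%), 3 of 9 in OCI-AML3 (7.18%), 3 of 9 in THP-1 (6.38%) and 2 of 7 in HL-60 (5.34%). Of these induced calls, 12 came from pairs that passed the filter through etoposide libraries only, which favours a higher value. They were AIM2, IL1B and IL18 in NB-4, NAIP and IL1B in MV-4-11, and NAIP in MOLM-13. Also among them were AIM2 in NOMO-1 and OCI-AML3, IL18 in MONO-MAC-6, and IL1RN in KASUMI-1, F-36P and HL-60. The background shares by line include such pairs too. The median log2 fold change of the members tested was 0.17 in HL-60 and 1.76 in NB-4 at the extremes, where the median of all genes tested lay between -0.03 and 0.09 in the 10 lines. Repression was called for 0 members in each of these lines but NB-4 (1 of 9), where all genes gave 4.82%, and for all genes it was 6.67% in F-36P, 6.52% in KASUMI-1, 4.47% in MONO-MAC-6, 4.43% in NOMO-1, 3.46% in THP-1, 3.37% in MOLM-13, 2.63% in MV-4-11, 1.36% in OCI-AML3 and 1.24% in HL-60. Being called in many lines was uncommon in general. Of 10588 genes tested in all 10 lines, 0.841% were induced in at least 8, as NLRP1 and NLRC4 were, and 1.41% in at least 7, as IL18 was. The shares were 2.17% for at least 6 lines and 0.425% for at least 9, which no member reached.

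In OCI-AML2, none of the 9 members tested was called, and the log2 fold changes ran from -0.10 (PYCARD) to 0.29 (NAIP). No gene at all was called in this line by the quasi-likelihood test, by the exact test of edgeR or by DESeq2, while 456 of 13604 genes had an unadjusted quasi-likelihood p under 0.05 and 3 an FDR below 0.05. NLRP3 stood at 263 ± 26.2 CPM before and 257 ± 12.7 CPM after, IL1RN at 51.3 ± 1.64 and 49.2 ± 0.788 CPM, and IL1B at 10.5 ± 2.09 and 12.2 ± 0.984 CPM. CDKN1A in the same libraries was 47.2 ± 2.04 before and 77.8 ± 3.94 CPM after, a log2 fold change of 0.73 against 1.86 to 5.46 in the other 10 lines.

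With the lines as replicates, the limma test of 1 difference per line gave an average log2 change of 2.30 ± 1.64 (SD, n = 10 lines, adjusted p = 0.00287) for IL1B, which was higher in 9 of 10. NLRP1 averaged 2.07 ± 0.97 (adjusted p = 0.000373), NLRC4 1.43 ± 0.48 (adjusted p = 0.000155), IL18 1.32 ± 0.75 (adjusted p = 0.000982) and IL1RN 1.57 ± 1.35 (adjusted p = 0.00763), each higher in 10 of 10. AIM2 averaged 1.5 ± 1.15 (adjusted p = 0.00425) and was higher in 9 of 10. The minimum of 1 CPM was set on the mean of both groups, and before etoposide only MONO-MAC-6 was above it. AIM2 thus entered this test through its etoposide libraries, which favours a higher value. The 9 lines include KASUMI-1 (0 reads before, 2 after) and MOLM-13 (35 and 36 reads). With a prior count of 0.5 the AIM2 average was 2.16. GSDMD, uncalled in every single line, passed at 0.38 ± 0.28 (adjusted p = 0.00855, higher in 9 of 10). PYCARD had 0.29 ± 0.37 and missed the threshold (adjusted p = 0.0579), while it passed with RLE factors (0.0454), with library size alone (0.0288) and without replicate 1 (0.0468). NLRP3 had 0.15 ± 1.08 (adjusted p = 0.715), a value that turned to -0.12 without F-36P, where its untreated count was 0. NAIP was too low to enter. The 7 members that passed stand against 23.0% of 14065 genes higher and 18.1% lower in the same test. The change itself differed between the 10 lines for 9 of 10 members by the interaction test of edgeR, NAIP being the exception (adjusted p = 0.0527), against 74.5% of all genes. Without replicate 3, 8 of 10 did, GSDMD being the one lost (adjusted p = 0.141).

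The other genes of the pathway gave more calls upward than downward. Of 51 genes listed, 50 were found and 37 could be tested in at least 1 line. Of 279 tested pairs, 85 were induced (30.5%) and 0 repressed, set beside 11.1% and 3.96% of all pairs. Pairs that passed the filter through etoposide libraries only, which favours a higher value, were not counted apart here or in the lists that follow. CASP1, the protease on which the pathway converges, was induced in 3 of 10 lines. These were F-36P, from 2.90, 4.57 and 5.43 CPM to 19.6, 13 and 16.2 CPM (log2 fold change 1.91 ± 0.248, adjusted p = 0.000105), KASUMI-1, from 1.48 ± 0.264 to 8.71 ± 0.677 CPM (2.52 ± 0.170, adjusted p = 2.31e-06), and NB-4, from 3.49 ± 0.330 to 10.6 ± 1.18 CPM (1.57 ± 0.152, adjusted p = 5.21e-07). They are the 3 lines with the lowest basal CASP1. In the other 7 lines, with 22.6 to 61.8 CPM before etoposide, the log2 fold change was -0.18 (MOLM-13) to 0.94 (OCI-AML3) and none was called. CASP1 averaged 0.81 ± 0.89 (adjusted p = 0.0251).

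Among the remaining lists, 17 of 53 tested pairs of other sensors, 13 of 27 of other pore or membrane rupture genes, 15 of 54 of receptors and 31 of 110 of regulators were induced, and 4 of 4 of other cytokines, all of them IL1A, a further ligand of the interleukin-1 receptor that was looked up after the count was seen. The 7 other cytokine genes had only these 4 tested pairs, and passing through etoposide libraries only would favour such a count. Of 31 pairs of caspases, CASP1 included, 5 were induced (16.1%), near the 11.1% of all pairs. GBP2, an interferon-induced GTPase that acts on bacterial membranes upstream of the non-canonical inflammasome, was induced in 9 of 9 lines tested (log2 fold change 1.12 to 5.57). NINJ1, which ruptures the plasma membrane at the end of pyroptosis, was induced in 8 of 10 (0.90 to 1.92 over the 10 lines) and averaged 1.21 ± 0.29. Of the 12 NF-κB subunits and targets kept as signs of priming, 10 were induced in at least 1 line and 48 of 106 tested pairs in all, with 1 repressed. The lines differed, from 9 of 11 induced in HL-60 to 1 of 10 in OCI-AML3. NB-4 had 2 of 11 induced and the 1 repressed. CXCL8, a neutrophil chemokine, was induced in 10 of 10 lines (1.40 to 4.96), and RELB, an NF-κB subunit, and ICAM1, an adhesion molecule, in 8 of 10 each. Chosen after their values were seen, the subunits RELA and NFKB1 averaged 0.03 ± 0.13 (adjusted p = 0.725) and 0.11 ± 0.56 (adjusted p = 0.622).

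Genes that mark myeloid maturation moved in the same libraries. Of the 10 monocyte markers, 39 of 65 tested pairs were induced and 2 repressed, where all genes gave 11.1% and 3.96%, the shares beside which the other lists here are also to be read. Picked from this list after the values were seen, ITGAM, an integrin chain, was induced in 9 of 10 lines. The summed level of the list ran from 6.59 to 4698 CPM over untreated and from 14.2 to 6535 CPM over etoposide libraries of the 10 lines, and was higher after etoposide in 8 lines, by 1.75-fold in F-36P up to 5.71-fold in KASUMI-1. In MONO-MAC-6 and NOMO-1 the sum was 0.915 and 0.971 times the untreated one. The sum mostly follows LYZ, which held 1905152 reads over all 66 libraries, against at most 159218 (VCAN) for any other gene of the list. Of the 6 granulocytic markers, 0 of 43 tested pairs were induced and 16 repressed, and their sum was 0.465 to 31676 CPM before and 1.45 to 15701 CPM after. That sum was lower after etoposide in 6 of the 10 lines and higher in 4, by 1.12-fold in OCI-AML3, 1.32-fold in MOLM-13, 1.43-fold in MV-4-11 and 1.72-fold in F-36P. CD68 was under 1 CPM and CEACAM8 close to 0 in all untreated lines. Of the 4 lymphoid markers, 7 of 18 tested pairs were induced, with sums of at most 16.3 CPM. The 6 erythroid markers had 1 of 13 pairs induced and 3 repressed, the 4 general myeloid markers 2 of 40 induced and 1 repressed, and EPCAM, COL1A1 and PECAM1, listed for cells outside blood, 11 of 21 induced. PECAM1, an adhesion molecule that leukocytes also carry, was above 1 CPM in 10 of the 11 untreated lines, which goes against that name. Most of the 11 calls came from COL1A1, induced in 7 of the 8 lines in which it was tested. PECAM1 was induced in 3 of 10 and EPCAM in 1 of 3. The part of these changes in those of the inflammasome genes was not tested.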

How the data were processed

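Counts of reads per gene in 66 libraries were deposited by the authors as whole numbers without normalization, made with STAR 2.5.3a against GRCh38.p7 and gencode 25 per the labels and the submitters' processing notes. Which strand setting the count column holds is not given in the sources used here. Of 58037 identifiers listed, 45 copies of the pseudoautosomal region on Y, with 0 reads, were left out, and 56948 were named by gencode 44. Library sizes were 17997404 to 24101670 reads, and intervals and floors cover counting error only.

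Each line was fitted on its own (3 against 3 libraries) with the quasi-likelihood test of edgeR 4.0.16 in R 4.3.3, after a filter at 10 counts (15 in total) and TMM scaling, with Benjamini-Hochberg adjustment over all genes tested. Average changes over 10 lines used limma 3.58.1 on 1 log2 CPM difference per line (prior count 2, mean of at least 1 CPM), and differences between lines used F tests in edgeR. DESeq2 1.42.0, the exact test, other scalings and filters, and leaving out each replicate were alternatives. The scripts were tested on simulated data. Same-numbered libraries were checked for shared deviations, and the correlation was over 0.1 for all 3 pairs in NB-4 alone (lowest 0.152). The members and lists were chosen with earlier results of these data known. Named were all 10 members, CASP1, the 5 other listed genes called in most lines (at least 3), CDKN1A and MDM2, and for each member the 3 genes nearest in basal level, apart from those said to be chosen after their values were seen. P-values within a line measure the spread between the 3 libraries of a group, and those of average changes the spread between lines.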

Additional observations from a re-analysis of the deposited data

Results flagged for a closer look

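The response to etoposide differed between the 10 lines for 9 of the 10 genes, by the edgeR interaction F test. Adjusted p-values were 3.51e-23 for NLRP3, 2.16e-22 for IL1B, 9.63e-20 for IL1RN, 1.81e-18 for NLRP1 and 8.60e-14 for IL18. They were 5.78e-06 for AIM2, 8.11e-06 for NLRC4, 6.69e-05 for PYCARD and 0.00130 for GSDMD. Such a difference was found for 74.5% of all genes tested, and dose differed with the line.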

How the results depend on the processing

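The 42 induced calls became 26 with a filter at a mean of 5 CPM, which tests fewer pairs, and 65 at the FDR alone, which drops the fold threshold. The 1 repressed call became 0 with library size alone as scaling and 5 at the FDR alone. The counts at the FDR alone have no share of all genes beside them, as it was not worked out. The induced calls stayed within 42 to 46 under the 13 other alternatives, the members with an average change within 6 to 8, those whose change differed between lines within 8 to 9, and those whose basal level differed at 10. No member result changed direction under any alternative run on the calls. With the replicate number as a block there were 42 induced calls, and the block changed no member call. Library size alone moved the median of all genes by more than 0.1 on the log2 scale in F-36P, HL-60, KASUMI-1, MONO-MAC-6, MV-4-11 and NB-4. Apart from the fold and filter settings, the cause was not tested. At this depth AIM2 and NAIP were mostly too low to test.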
